A study of Rattus norvegicus with 16 samples.

Results

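Gene expression of CD8+ leukocytes taken from the glomeruli of nephritic rats was set against that of blood pan T cells. Glomeruli are the filtering tufts of the kidney, and in autoimmune glomerulonephritis leukocytes enter them. The comparison was chosen by sample title: the 4 arrays titled as CD8+ cells infiltrating the glomeruli of Wistar Kyoto (WKY) rats against the 2 arrays titled as WKY blood pan T cells, 6 of 16 arrays in all. The 4 glomerular arrays are 2 of CD8+ RT1B+ cells and 2 of CD8+ RT1Blow cells, split by RT1B, a rat major histocompatibility complex (MHC) class II molecule. The titles and not the measured values chose the arrays. All groups shared strain, sex and treatment: female WKY rats aged 15 weeks, immunised with an autoantigen and killed on days 30 to 35, so that no array of the 6 came from an untreated animal. Cells were sorted in 3 steps with magnetic beads, and those of blood came from mononuclear cells. A further 4 arrays, WKY blood CD8+ RT1B+ and CD8+ RT1Blow cells of the same design, served as a comparison. Whether the paired arrays of each group stem from separate animals or from pools is not given in the labels. The p-values therefore cover array-to-array spread alone, part of which may be technical.

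CD8 is best known as the coreceptor of cytotoxic T cells, where it is a pair of an alpha chain (Cd8a) and a beta chain (Cd8b). In the rat, natural killer (NK) cells also carry CD8, as alpha chains alone, and a sort on CD8 can therefore collect both lineages. NK cells lack a rearranged antigen receptor and are recognised by lectin-like receptors such as NKR-P1A (Klrb1a), by NKp46 (Ncr1) and by granules filled with perforin and granzymes. T cells carry the CD3 complex (Cd3d, Cd3e, Cd3g) beside their antigen receptor. Naive T cells in blood keep the homing receptor CCR7 (Ccr7), which leads them to lymph nodes, and lose it on activation. CCL1 (Ccl1) is a chemokine secreted by activated lymphocytes and myeloid cells, whose receptor is CCR8.

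Of 58717 gene spots, 58.8% and 58.0% were well above background on the pan T arrays and 60.4% to 68.6% on the glomerular arrays. Detection thus went with the groups compared. No spot was saturated (0 on each). The 75th percentile of the processed signal, to which each level below is relative on the log2 scale, ran from 471.1 (RT1Blow replicate 1) to 1980 (RT1B+ replicate 1). The 2 arrays of a group correlated across genes at 0.982 for pan T, 0.987 for RT1B+ and 0.982 for RT1Blow. Genes were called at an adjusted p under 0.05 (limma, Benjamini-Hochberg over 18481 genes), at least a 2-fold change and, in 1 or more of the groups compared, detection above background (the scanner software's flag) on both arrays. Of 18481 genes tested, 5230 (28.3%) were called, 3241 higher (17.5%) and 1989 lower (10.8%) on the glomerular arrays. Calls thus went upward in 62.0% of cases. That share was 50.3% when the 75th percentile was taken over spots detected on all arrays and 73.2% with the values of the deposited series matrix, so the split between rises and falls rests on the scaling. The median difference over all genes was 0.15 on the log2 scale. Every list below is to be read against these shares, and "rose", "fell", "higher" and "lower" of a gene or list member refer to called genes. The glomerular arrays lay in row 1 of their slide and the pan T arrays in row 2, so slide row and group cannot be told apart. In sorted bulk samples, fewer cells of a type and less RNA per cell cannot be told apart either.

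Klrb1a, Ncr1 and Ccl1, the 3 genes named as marks of these glomerular cells, were all higher there than in pan T cells. Klrb1a read 2.98 and 2.56 on the RT1B+ arrays, 2.61 and 2.38 on the RT1Blow arrays, and -0.47 and -0.61 on the pan T arrays. The glomerular arrays were close together and far above both pan T arrays, a 9.0-fold difference (log2 3.17 ± 0.24 SE, adjusted p = 3.25e-06, limma, n = 4 and 2). Ncr1 read 0.83 and 0.17 on RT1B+, 1.83 and 0.56 on RT1Blow, and -3.61 and -1.58 on pan T arrays. Its pan T arrays differed from each other by more than the glomerular ones did, and the 10.9-fold difference carried a larger error (log2 3.44 ± 0.48, adjusted p = 2.03e-04, limma). Ccl1 read 4.59 and 4.02 on RT1B+ and 2.51 and 3.23 on RT1Blow arrays, while its readings of -6.94 and -6.92 on the pan T arrays were not well above background. It was at least 886-fold higher on the glomerular arrays (adjusted p = 8.58e-08, limma). Such a bound sets the mean of the brighter group against, on each dim array, the higher of the gene's own signal and the lowest signal well above background.

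Of the CD8 chains, Cd8a was not called and Cd8b fell. Cd8a, the alpha chain, read 3.0 and 3.14 on RT1B+, 3.80 and 3.52 on RT1Blow, and 2.77 and 3.48 on pan T arrays, and the groups overlapped (log2 0.24 ± 0.28, adjusted p = 0.518, limma). That small difference turned to -0.18 under quantile normalization and to -0.11 without pan T replicate 1. Cd8b, the beta chain, read -2.29 and -2.93 on RT1B+, -1.88 and -1.06 on RT1Blow, and 0.54 and 1.42 on pan T arrays. All 4 glomerular arrays lay below both pan T arrays, an 8.12-fold fall (log2 -3.02 ± 0.48, adjusted p = 4.38e-04, limma). Cd4, the coreceptor of helper T cells, read -5.80 and -6.11 on RT1B+, -2.47 and -3.59 on RT1Blow, and -0.59 and -0.75 on pan T arrays, a 14.2-fold fall with 3 of 4 glomerular arrays above background. The RT1B gate was read by RT1-Bb, at 2.45 and 2.54 on RT1B+ arrays and at 1.56 and 3.16 on RT1Blow arrays. RT1Blow replicate 2 thus lay above both RT1B+ arrays for this transcript, against the order of the labels. The labels name a sort on the RT1B molecule itself, which the arrays do not measure. The comparison with pan T called 5230 genes with that array and 5202 without it, and RT1Blow against pan T 5268 with it and 5060 without it. RT1-Ba, the alpha chain of the same molecule, was too dim in all groups to be tested.

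**Figure D1:**
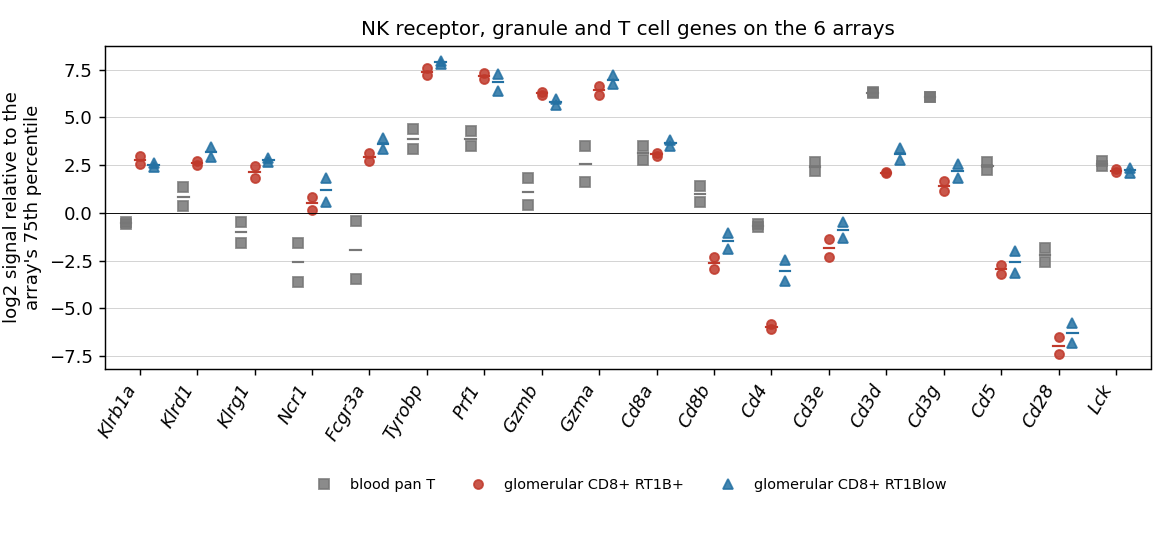
Level of each gene (log2 signal minus the array's 75th percentile) on the 2 blood pan T arrays (grey squares), 2 glomerular CD8+ RT1B+ arrays (red circles) and 2 glomerular CD8+ RT1Blow arrays (blue triangles), with a short line at each group mean. Levels are compared within a gene only: for Klrb1a the glomerular arrays sit between 2.38 and 2.98 and the pan T arrays at -0.47 and -0.61, while for Cd3d the glomerular arrays sit between 2.08 and 3.41 and the pan T arrays at 6.26 and 6.32.

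NK receptors and their adaptors rose as a group. Of 29 tested members of a list of 37, 25 were higher on the glomerular arrays and 1 was lower, with a median log2 difference of 3.03, where 17.5% of all genes were higher. Fcgr3a, the low-affinity IgG receptor CD16 through which NK cells bind antibody-coated targets, read 3.12 and 2.72 on RT1B+, 3.90 and 3.33 on RT1Blow, and -3.48 and -0.43 on pan T arrays. It was 37.3-fold higher, although the pan T arrays themselves lay far apart. Tyrobp, the adaptor DAP12 that passes on signals from activating receptors, rose 13.6-fold (log2 3.77 ± 0.29), from 3.35 and 4.39 on pan T arrays to between 7.20 and 7.97. Fcer1g, the partner adaptor of Ncr1 and Fcgr3a, rose 12.2-fold.

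All 7 tested Ly49 genes of the list rose, led by Ly49s7 (25.6-fold) and Ly49i3 (24.2-fold). Ly49 receptors read MHC class I molecules on other cells, and their genes are near copies of each other, so signal may be shared between their probes. The inhibitory lectin receptor Klrg1, carried by mature NK and effector T cells, rose 11.1-fold, and Klrd1, the CD94 chain of the CD94/NKG2 receptors, rose 4.16-fold. Klrk1, which encodes NKG2D, overlapped between the sides (log2 0.74 ± 0.27) and was not called. Hcst, the adaptor of NKG2D, read between 5.34 and 6.27 on glomerular arrays and 5.18 and 5.10 on pan T arrays, and was not called either. Crtam, a receptor displayed by NK and CD8+ T cells after activation, read 2.86, 3.83, 1.30 and 2.44 on the glomerular arrays against -3.45 and -3.64, a 71.1-fold rise. The member that fell was Cd7 (log2 -1.60 ± 0.42), and without pan T replicate 2 it was no longer called (log2 -1.23, adjusted p = 0.109, limma).

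Cytotoxic granule genes rose with the NK receptors. Of 17 tested members 12 were higher and none (0) was lower, with a median of 2.82. Prf1, the pore-forming perforin, read 7.0 and 7.31 on RT1B+, 7.27 and 6.40 on RT1Blow, and 3.48 and 4.29 on pan T arrays, an 8.63-fold rise (log2 3.11 ± 0.37). Gzmb, the granzyme that starts apoptosis in target cells, read 6.32, 6.18, 5.67 and 5.98 against 0.41 and 1.81, a 30.5-fold rise (log2 4.93 ± 0.35). A further probe of Gzmb gave a log2 difference of 5.42. Neither gene overlapped between the sides. Gzma rose 17.4-fold, Gzmc 43.9-fold and Gzmm 7.04-fold, and Gzmf, not well above background on either pan T array, was at least 19.3-fold higher. Outside the list, the granzyme F-like gene Gzmfl1 had the largest fold among genes measured on both sides: 4.13, 4.61, 3.78 and 4.45 against -4.99 and -3.61, a 374-fold difference. Rat granzyme genes of this cluster are close copies, so their probes may share signal. Stx11, a syntaxin needed for granule release, rose 19.6-fold. The secretion genes Rab27a and Unc13d overlapped between the sides, at log2 differences of 0.10 ± 0.20 and -0.09 ± 0.26.

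Genes of the T cell receptor complex fell. Of 21 tested members 13 were lower and 1 was higher, with a median of -2.17, where 10.8% of all genes were lower. Cd3e read -1.37 and -2.29 on RT1B+, -1.31 and -0.47 on RT1Blow, and 2.18 and 2.64 on pan T arrays, a 13.6-fold fall (log2 -3.77 ± 0.54). Cd3d fell by 3.70 on the log2 scale and Cd3g 18.9-fold, and all 3 remained well above background on the 4 glomerular arrays. Cd5, an inhibitory receptor of T cells, read -2.73, -3.18, -3.14 and -2.01 against 2.66 and 2.25, a 37.3-fold fall. Cd28, the costimulatory receptor that pairs with CD80 and CD86, was lower, at -6.51, -7.39, -6.81 and -5.76 against -1.84 and -2.58. It was well above background on 2 of the 4 glomerular arrays, and its log2 difference ran from -4.78 to -1.86 over the alternatives.

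Other members of that list moved less or were not called. The kinase genes Lck (log2 -0.36 ± 0.29) and Zap70 (0.35 ± 0.26) and the scaffold gene Lat (-0.51 ± 0.34) were not called. The adhesion receptor gene Cd2 overlapped between the sides (0.26 ± 0.30). Cd247, the zeta chain that serves both CD3 and CD16, fell 2.08-fold, and it was not called without pan T replicate 1 (log2 -1.11, adjusted p = 0.0854, limma), pan T replicate 2 (-1.01, 0.106) or RT1B+ replicate 2 (-1.02, 0.0525). The member that rose, the adaptor gene Fyb1 (log2 1.28), overlapped between the sides and was not called without pan T replicate 1 (0.87), RT1B+ replicate 2 (1.11) or RT1Blow replicate 1 (0.92).

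**Figure D2:**
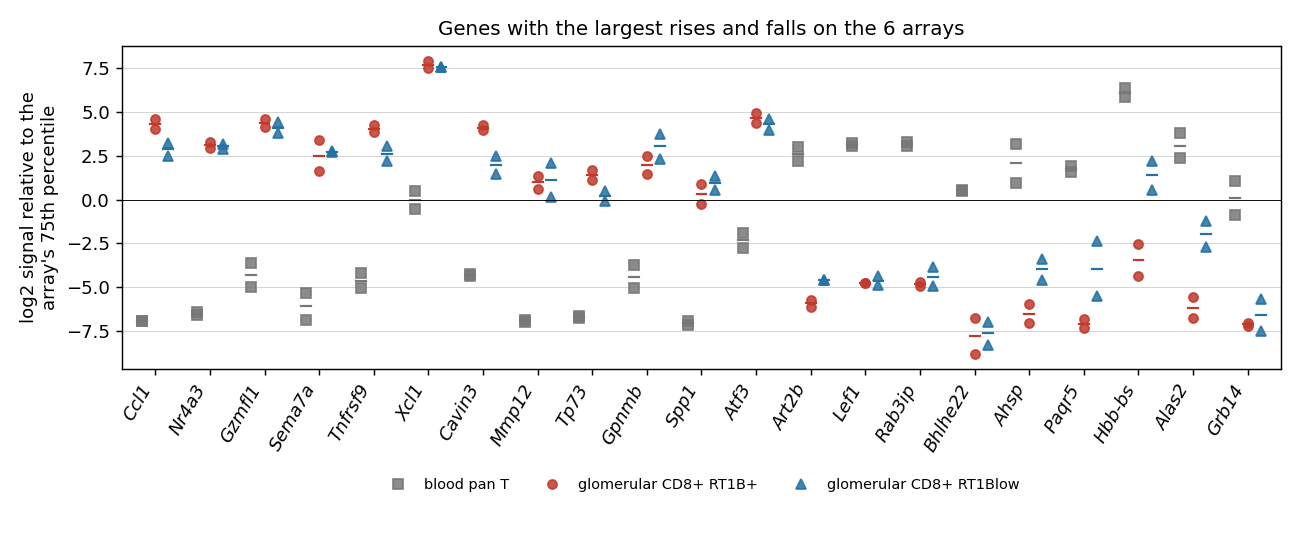
Level of each gene (log2 signal minus the array's 75th percentile) on the 2 pan T arrays (grey squares), 2 RT1B+ arrays (red circles) and 2 RT1Blow arrays (blue triangles), with a short line at each group mean. From Ccl1 to Atf3 the glomerular arrays lie above both pan T arrays, and from Art2b to Grb14 they lie below them. The rule that chose these genes required this separation. For Xcl1 the glomerular arrays read 7.50 to 7.95 and the pan T arrays -0.52 and 0.47.

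The largest rises included genes known from activated lymphocytes and genes known from macrophages. Among genes that pan T cells also showed on at least 1 array, Gzmfl1 was followed by Tnfrsf9 (4-1BB, an activation-induced receptor of NK and T cells, 251-fold), the chemokine gene Xcl1 (207-fold), the caveolar coat gene Cavin3 (164-fold) and the lysosomal glycoprotein gene Gpnmb (122-fold). Behind them came the stress-induced transcription factor gene Atf3 (113-fold), the adhesion receptor gene Adgrg1 (GPR56, 103-fold), the fatty acid transporter gene Slc27a2 and the maturation marker gene Cd83 (each 84.7-fold). Slc27a2 read -4.52 and 0.51 on the pan T arrays, so its fold rests on a wide pan T spread. For Gzmfl1, Tnfrsf9, Srxn1 and the chemokine gene Ccl17, 1 pan T array passed the detection flag and the other did not. Nr4a2 (77.7-fold), Gadd45b (73.4-fold) and Srxn1 (72.1-fold) completed the 12. Among genes not well above background on either pan T array, the bounds were led by Ccl1 and by the orphan nuclear receptor gene Nr4a3, which read 2.94 and 3.28 on RT1B+ and 2.91 and 3.18 on RT1Blow arrays (at least 622-fold). The membrane-bound semaphorin gene Sema7a was at least 358-fold higher, Mmp12 (macrophage elastase) at least 152-fold, the p53 family gene Tp73 at least 129-fold and Spp1 (osteopontin) at least 115-fold.

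The largest falls included genes known from resting T cells and genes known from red cells. Art2b, the ADP-ribosyltransferase known in the rat as the T cell antigen RT6, read -5.73 and -6.13 on RT1B+, -4.59 and -4.59 on RT1Blow, and 2.23 and 2.98 on pan T arrays, a 234-fold fall. Lef1, a Wnt pathway transcription factor that marks naive T cells, read between -4.90 and -4.39 against 3.26 and 3.04, a 231-fold fall, and a further probe gave a log2 difference of -7.88. The guanine nucleotide exchange factor gene Rab3ip fell 224-fold. Among genes not well above background on any glomerular array, Bhlhe22 was at least 188-fold lower, Tmem273 at least 108-fold and Xkrx at least 54.6-fold. Of the other leading falls, Ahsp (163-fold), Alas2 and Hbb-bs (142-fold each) and Slc4a1 (123-fold) belong to red cell precursors, which make haemoglobin. Paqr5 (157-fold) and Grb14 (126-fold), a progestin receptor and a growth factor receptor adaptor, stood between them. Of the 4 glomerular arrays, 3 measured Ahsp and Alas2 above background, 2 measured Slc4a1, and 1 measured Paqr5 and Grb14, so these folds rest on dim signals.

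Genes of the list of death ligands and the TNF family, which also holds the receptor gene Fas, rose in 9 of 11 tested members and fell in 1. Tnf itself read 5.79 and 6.38 on RT1B+, 6.49 and 6.49 on RT1Blow, and 1.89 and 1.35 on pan T arrays, a 25.3-fold rise (log2 4.66 ± 0.43). Cd70, the ligand of CD27, read 0.60, 0.99, -1.03 and 0.25 and was at least 84.7-fold higher, and Tnfsf4 (OX40 ligand) was at least 23.5-fold higher. Tnfsf9, the ligand of 4-1BB, rose 19.3-fold beside its receptor Tnfrsf9, which read 3.86, 4.25, 2.18 and 3.05 against -5.07 and -4.20. Fas, the death receptor, rose 11.9-fold (log2 3.57), and a further probe of it gave a log2 difference of 2.22. Cd40lg, the ligand with which helper T cells license B cells and dendritic cells, went the other way: it read -8.78, -5.33, -6.56 and -8.27 against -0.76 and -1.54 and was well above background on 1 of 4 glomerular arrays, so its fold was not measured. Its log2 difference ran from -6.95 to -2.89 over the alternatives, and with the series matrix values it was not called (adjusted p = 0.0754, limma). Ltb did not pass the test (log2 -0.26 ± 0.34).

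Chemokine genes rose in 16 of 24 tested members, fell in 1, and had a median of 2.95. Beside Ccl1, Xcl1 (lymphotactin, which NK and CD8+ T cells make to attract cross-presenting dendritic cells) read 7.50, 7.95, 7.61 and 7.60 against -0.52 and 0.47 (log2 7.69 ± 0.30, adjusted p = 7.47e-08, limma). The 4 glomerular arrays were nearly level, and a further probe gave a log2 difference of 7.59. Ccl3, which attracts effector lymphocytes and monocytes, rose 22.6-fold and Ccl4 6.50-fold. Ccl5, already high in pan T cells at 7.11 and 7.30, rose 2.60-fold (log2 1.38 ± 0.38) and was not called without pan T replicate 1 (log2 1.29, adjusted p = 0.0860, limma). The CCR4 ligands Ccl17 and Ccl22, which are made mainly by dendritic cells and macrophages, rose by 4.32 and 3.20 on the log2 scale. The interferon-induced CXCR3 ligands rose as well: Cxcl10 19.0-fold, Cxcl9 at least 9.54-fold and Cxcl11 at least 8.85-fold. Ccl20 was at least 2.93-fold lower (log2 -2.64), but it was not called without pan T replicate 2 (log2 -2.49). Its log2 difference was -0.62 with outlier-flagged spots kept and -0.05 under normexp, and it was called under neither. A further probe, well above background on 0 of the 6 arrays, gave -0.60.

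Cytokine and growth factor genes rose in 19 of 31 tested members and fell in 4. Ifng, the macrophage-activating cytokine of NK and T helper 1 cells, read 4.50, 4.16, 4.12 and 4.21 against 0.56 and -0.63, a 19.4-fold rise. Il10, which restrains macrophages, was at least 32.8-fold higher at -0.83, -1.25, -1.09 and -1.50. Genes of the interleukin 1 family, made chiefly by myeloid cells, were among the risers: Il1a at least 56.7-fold, Il1rn 52.7-fold and Il1b 35.5-fold. A further probe of Il1a gave a log2 difference of 3.24, against 6.66 for the probe used. Il1b read 1.68 and 3.46 on RT1B+ and 5.52 and 3.93 on RT1Blow arrays, a wide spread, against -1.51 and -1.49. Il17a rose 6.36-fold. Il16, a chemoattractant held in resting lymphocytes, fell 20.9-fold and Il15 3.65-fold, each with all 4 glomerular arrays below both pan T arrays.

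**Figure D3:**
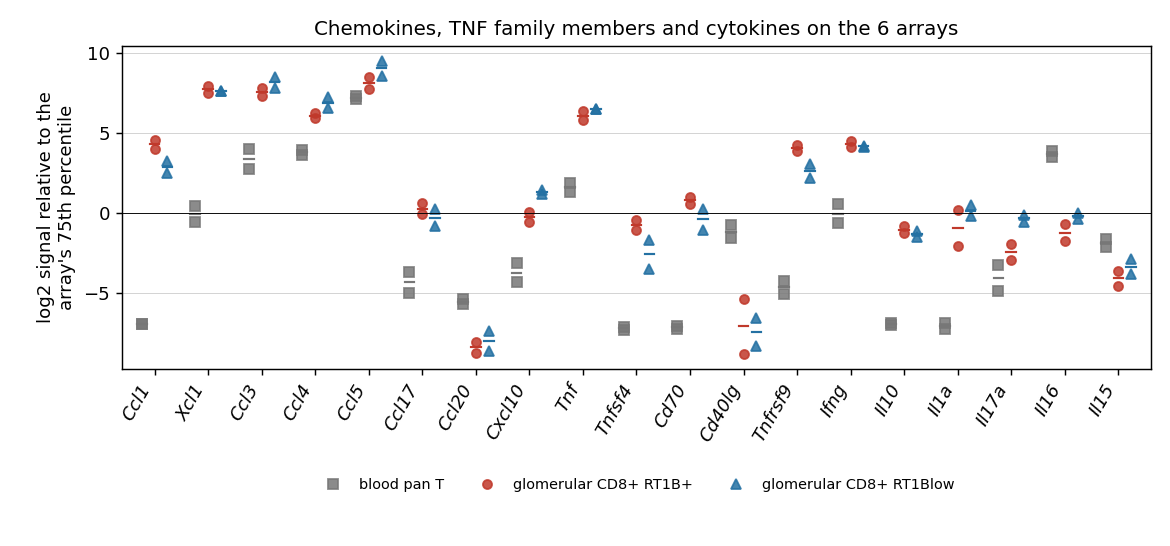
Level of chemokine, TNF family and cytokine genes (log2 signal minus the array's 75th percentile) on the 2 pan T arrays (grey squares), 2 RT1B+ arrays (red circles) and 2 RT1Blow arrays (blue triangles), with a short line at each group mean. Tnf sits between 5.79 and 6.49 on the glomerular arrays and at 1.89 and 1.35 on pan T arrays. Ccl20, Cd40lg, Il16 and Il15 run the other way, and the fall of Ccl20 was not called with outlier-flagged spots kept.

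Genes that lymphocytes switch on within minutes to hours of a stimulus rose widely. Of 33 immediate early genes 24 were higher and none (0) was lower, with a median of 2.33. The Nr4a receptors, induced by antigen receptor signals, moved together: beside Nr4a3, Nr4a1 (Nur77) read 5.60, 5.41, 6.47 and 5.59 against -0.04 and -0.33 (61.8-fold), and Nr4a2 read 6.37, 6.35, 6.39 and 6.48 against 0.01 and 0.22. Egr2 was at least 74.6-fold higher and Fosl2 rose 56.4-fold. Fos rose 2.41-fold (log2 1.27 ± 0.35) and was not called without pan T replicate 2 (log2 0.86). Jun (0.87 ± 0.27) and Myc (-0.68 ± 0.21) changed by less than 2-fold, and Dusp1 and Btg2 overlapped between the sides. The labels describe enzymatic digestion for kidney and a density gradient for blood, so digestion and tissue cannot be told apart here. On the WKY blood CD8+ arrays Nr4a1 read 5.42, 4.62, 5.58 and 4.98, also far above pan T, and Nr4a3 read between -1.86 and 1.18. The mean level of the list was 2.35 to 3.10 on those arrays, 3.10 to 3.58 on glomerular arrays and 0.61 and 0.19 on pan T arrays. Against blood CD8+ cells 8 of 33 members were higher and 1 was lower on the glomerular arrays (median 0.47). In that comparison 9.56% of all genes were higher and 5.12% lower.

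All 12 tested members of the list of NF-kB genes and their feedback inhibitors rose, with a median of 3.36. NF-kB is the transcription factor through which TNF family receptors and inflammatory signals act. Nfkbia, its inhibitor and target, read 6.73, 7.05, 7.19 and 7.09 against 3.68 and 3.15, a 12.1-fold rise (log2 3.60 ± 0.32). Nfkb2, a subunit precursor, rose 15.8-fold, and Rela, the main activating subunit, rose 2.63-fold. The survival genes Bcl2a1 and Cflar rose 35.3-fold and 16.2-fold, and the adhesion molecule gene Icam1 rose 30.1-fold. A further probe of Cflar, well above background on all 6 arrays, gave a log2 difference of 1.47, against 4.02 for the probe used.

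Promoters of 4 of these genes are shown because their transcripts rose together: Ccl1 and Xcl1 as chemokines, Nfkbia as a target of NF-kB and Nr4a1 as an immediate early gene. Each sequence is the 250 bases before the annotated start, 5′ to 3′ on the strand of the gene, from RefSeq (build GRCr8). They are chr10:67628741-67628990 (minus strand) for Ccl1, chr13:79785441-79785690 (minus) for Xcl1, chr6:78597073-78597322 (minus) for Nfkbia and chr7:134259888-134260137 (plus) for Nr4a1. Capitals mark letters of motifs searched on both strands: GGAAA (core of NFAT sites), GGG and TCC with 4 bases of any kind between them (a form of the NF-kB site), TGANTCA (AP-1) and TGACG (the core of a CRE site). Matches on the other strand read TTTCC and CGTCA here, and for the NF-kB form GGA and CCC with 4 bases between them. A GGAAA match can overlap a match to the NF-kB letters.
Ccl1: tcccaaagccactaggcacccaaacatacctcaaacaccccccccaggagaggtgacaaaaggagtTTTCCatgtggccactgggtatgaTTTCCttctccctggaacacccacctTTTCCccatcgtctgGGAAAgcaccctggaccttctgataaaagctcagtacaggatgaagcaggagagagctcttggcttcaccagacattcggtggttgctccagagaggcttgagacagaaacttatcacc
Xcl1: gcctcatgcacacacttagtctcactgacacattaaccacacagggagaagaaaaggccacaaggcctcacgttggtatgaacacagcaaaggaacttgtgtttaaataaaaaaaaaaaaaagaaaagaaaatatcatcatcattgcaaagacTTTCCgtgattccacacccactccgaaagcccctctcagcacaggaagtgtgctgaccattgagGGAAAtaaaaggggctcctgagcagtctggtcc
Nfkbia: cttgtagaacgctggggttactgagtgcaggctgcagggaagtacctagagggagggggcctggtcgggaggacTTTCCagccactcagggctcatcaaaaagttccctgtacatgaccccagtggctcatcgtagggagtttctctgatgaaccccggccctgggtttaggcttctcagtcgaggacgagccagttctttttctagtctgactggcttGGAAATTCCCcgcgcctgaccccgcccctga
Nr4a1: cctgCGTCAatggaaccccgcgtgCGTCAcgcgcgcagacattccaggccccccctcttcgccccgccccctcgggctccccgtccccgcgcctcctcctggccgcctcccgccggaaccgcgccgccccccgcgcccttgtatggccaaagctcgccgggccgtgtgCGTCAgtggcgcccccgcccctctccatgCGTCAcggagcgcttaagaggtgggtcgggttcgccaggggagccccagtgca
Ccl1 held 4 matches to GGAAA and Xcl1 held 2. Nfkbia held 2, and 1 match to the NF-kB letters, which starts at the same base as its later GGAAA match. Nr4a1 held 4 matches to TGACG. Over all 33469 promoters of this length, 56.9% held GGAAA, 15.2% the NF-kB letters, 6.34% TGANTCA and 18.2% TGACG. Of the risers with a promoter entry, 9 of 12 chemokine genes, 9 of 13 cytokine genes, 8 of 11 NF-kB list genes and 10 of 18 immediate early genes held GGAAA. The NF-kB letters were in 5 chemokine, 1 cytokine, 8 NF-kB list and 6 immediate early genes, TGANTCA in 3, 1, 4 and 0, and TGACG in 1, 4, 5 and 14. Among the promoters of all genes tested, 54.4% held GGAAA, 4.85% TGANTCA and 27.4% TGACG, against 54.2%, 6.17% and 26.5% of genes called higher. The NF-kB letters were held by 24.8% of the promoters of all genes called higher, 18.4% of those called lower and 19.9% of those tested. A match is a description of letters and not a bound site.

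Transcription factors of the NK and T lineages split evenly, with 9 higher and 9 lower of 26 tested (median -0.21). Among the risers, Nfil3 and Id2 are needed for NK cell development: Nfil3 read 1.87, 2.20, 1.93 and 1.62 against -2.55 and -2.25 (19.7-fold), and Id2 rose 10.9-fold. Irf4, induced by antigen receptor signals, was at least 34.2-fold higher, and Prdm1 (Blimp-1), of terminally differentiated effector cells, rose 10.7-fold. A further probe of Prdm1 gave a log2 difference of 1.83, against 3.42 for the probe used. Irf8 rose 13.9-fold and Runx3 5.37-fold. Beside Lef1, Tox fell 13.4-fold (above background on 2 of 4 glomerular arrays) and Gata3, of T helper 2 cells and T cell development, fell 2.18-fold (log2 -1.12), and by less than 2-fold with normexp (-0.92) or the series matrix values (-0.77). Tbx21 (T-bet), shared by NK and T helper 1 cells, overlapped between the sides (log2 0.37 ± 0.27).

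Of 18 tested members of the list of lymphocyte homing and egress receptors 8 were lower and 4 higher. Ccr7 read -1.96 and -0.46 on RT1B+, -3.51 and -1.73 on RT1Blow, and 2.13 and 1.54 on pan T arrays, a 13.4-fold fall (log2 -3.75 ± 0.59, adjusted p = 4.32e-04, limma). All 4 glomerular arrays lay below both pan T arrays, which the rule for naming list members required. The egress receptor genes split: S1pr1 fell 7.11-fold, while S1pr5, which NK cells use to leave lymphoid tissue, was higher (log2 1.77 ± 0.52) and was not called without pan T replicate 1 (1.39, adjusted p = 0.152, limma). Ccr4 was not well above background on the glomerular arrays and was at least 15.9-fold lower. Cd69, which holds lymphocytes in tissue, rose 2.56-fold. Cx3cr1 overlapped between the sides. Among 17 integrin and adhesion genes 8 rose and 3 fell; the collagen-binding chain Itga1, typical of tissue-resident lymphocytes, rose 29.0-fold and Itgb7, a chain of the gut-homing integrin, fell 7.87-fold.

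Cytokine receptor and signalling genes rose in 12 of 30 tested members and fell in 4. Il7r, the receptor through which naive and memory T cells survive, read -5.04, -5.00, -4.59 and -4.28 against 1.73 and 0.99, a 68.1-fold fall, and Il6r fell 32.3-fold. Il2rb, the interleukin 2 and 15 receptor chain on which NK cells depend, rose 6.60-fold and the high-affinity chain Il2ra 6.33-fold. Socs2 was at least 30.1-fold lower. Of 23 costimulation and checkpoint genes 10 rose and 4 fell, and without pan T replicate 1 the falls numbered 7. Lag3 rose 11.6-fold, Entpd1 (CD39) was at least 18.9-fold higher and Havcr2 (TIM-3) at least 4.59-fold. Ctla4 fell 14.4-fold, measured above background on 2 of 4 glomerular arrays. Pdcd1 (PD-1) was not called (log2 -0.81 ± 0.23).

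Cell cycle genes rose almost throughout: 39 of 42 tested members were higher and none (0) was lower, with a median of 1.97. Tk1, which makes thymidine nucleotides for DNA synthesis, read 2.97 and 3.20 on RT1B+, 2.10 and 2.15 on RT1Blow, and -2.70 and -1.05 on pan T arrays, a 22.3-fold rise. Mki67, the proliferation antigen, read 2.84, 2.23, 1.65 and 2.15 against -0.90 and 0.16 (6.01-fold). Ccna2 (8.37-fold), Bub1 (8.22-fold) and Cdk1 (7.94-fold), of S phase and mitosis, rose alike. Mcm7, Mcm3 and Rrm1 were the members not called. Glycolysis genes rose in 12 of 22 members and none (0) fell, with the lactate transporter genes Slc16a3 (8.79-fold) and Slc16a1 (8.15-fold) ahead and Gapdh 3.82-fold higher. Of 23 ribosomal protein genes none (0) was called (median 0.30), and of 30 respiratory chain genes 1 rose and 1 fell (median 0.49).

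**Figure D4:**
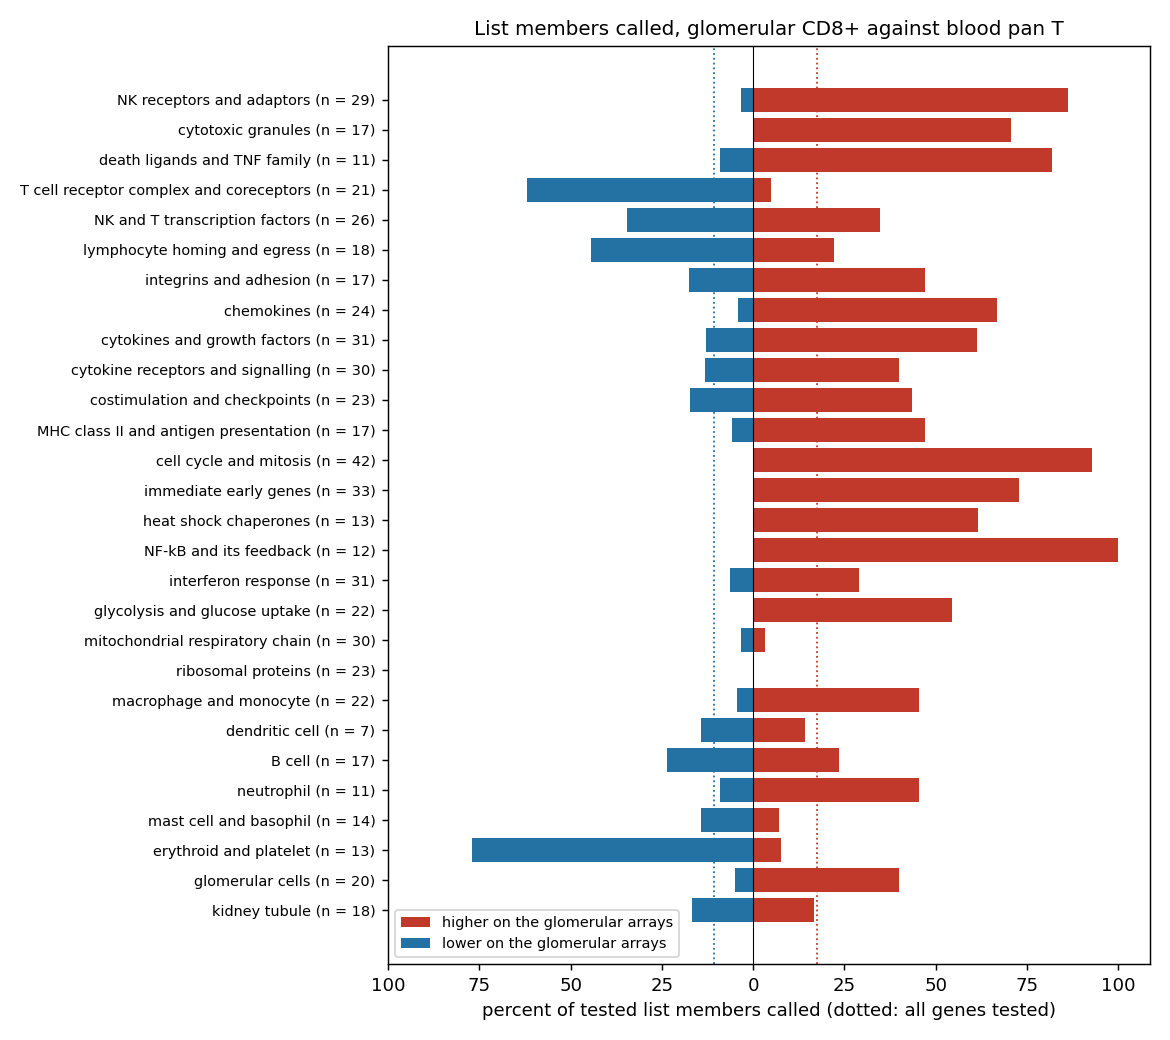
Percent of the tested members of each gene list that were called higher (red, right) or lower (blue, left) on the 4 glomerular CD8+ arrays than on the 2 pan T arrays, with the number tested in brackets. Dotted lines mark the shares over all genes tested, 17.5% higher and 10.8% lower; NF-kB (12 of 12), cell cycle (39 of 42) and NK receptor genes (25 of 29) reach farthest right, and erythroid (10 of 13) and T cell receptor genes (13 of 21) farthest left.

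MHC class II and antigen presentation genes rose in 8 of 17 tested members and fell in 1. Cd74, the invariant chain, read 3.59, 4.11, 4.01 and 4.42 against 3.14 and 2.29 (log2 1.32 ± 0.34), and it was not called without pan T replicate 2 (log2 0.90, adjusted p = 0.126, limma). Cd40 rose 8.92-fold and Cd86, a ligand of CD28, was at least 8.21-fold higher. The class II chains RT1-Bb and RT1-Da overlapped between the sides. RT1-Bb stood at a log2 difference of 0.14 ± 0.43, which turned negative under quantile normalization (-0.13), with the percentile over spots detected on all arrays (-0.07), with the series matrix values (-0.07) and without pan T replicate 2 or RT1Blow replicate 2. A further probe of RT1-Bb, well above background on all 6 arrays, gave a log2 difference of 0.59. RT1-DOb, of the class II modulator DO, fell 10.5-fold.

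Markers of cells other than NK and T cells moved with the comparison, and their part in the results above was not tested. Of 22 macrophage and monocyte genes 10 were higher and 1 was lower, and the mean level of the list was -1.60 and -0.80 on RT1B+, -0.43 and -0.21 on RT1Blow, and -2.46 and -2.22 on pan T arrays. Cd14 read -0.59, 0.48, 1.02 and 1.51 against -3.02 and -2.40, and Cd68 read 0.53, 1.04, 2.69 and 2.10 against -0.70 and -0.86. Without pan T replicate 1 the higher members of that list numbered 3, and Cd14 (adjusted p = 0.0663), Cd68 (0.0508) and Trem2 (0.110) were not called by limma. Without pan T replicate 2 Cd68 was not called either (adjusted p = 0.0604, limma). Gpnmb and Mmp12 kept their calls under both. Cd163, a scavenger receptor of resident macrophages, stayed below the detection flag on all 6 arrays, and the complement genes C1qa, C1qb and C1qc were not called. Of 11 neutrophil genes 5 were higher and 1 lower, with S100a9 at -2.91, -2.40, -0.40 and -0.53 against -4.91 and -5.32.

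Genes of kidney cells were read in the same way, and their part was not tested. Of 20 genes of podocytes, endothelium and mesangium 8 were higher and 1 lower. The higher members numbered 4 without pan T replicate 1, 5 without pan T replicate 2 and 5 without RT1B+ replicate 1. Kdr, the endothelial VEGF receptor, read 0.16, -1.31, 0.03 and 2.19 and was at least 72.1-fold higher. Podxl, of podocytes and endothelium, was at least 19.4-fold higher. Nphs1, of the podocyte slit diaphragm, was too dim to be tested. The mean level of the list was between -4.20 and -3.51 on glomerular arrays and -4.87 and -4.89 on pan T arrays. Of 18 tubule genes 3 were higher and 3 lower; the largest rise was in Ass1 (at least 62.1-fold), an enzyme of arginine synthesis that activated leukocytes also express.

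Red cell genes were higher in pan T cells: 10 of 13 erythroid and platelet genes were lower and 1 was higher on the glomerular arrays, with list means of -3.74 and -4.50 on RT1B+, -1.75 and -1.43 on RT1Blow, and -0.03 and 1.11 on pan T arrays. Hbb-bs, a beta globin, read -2.56 and -4.37 on RT1B+, 0.56 and 2.23 on RT1Blow, and 5.86 and 6.36 on pan T arrays. Of 17 B cell genes 4 were higher and 4 lower, of 14 mast cell and basophil genes 1 was higher and 2 lower, and of 7 dendritic cell genes 1 was higher and 1 lower.

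**Figure D5:**
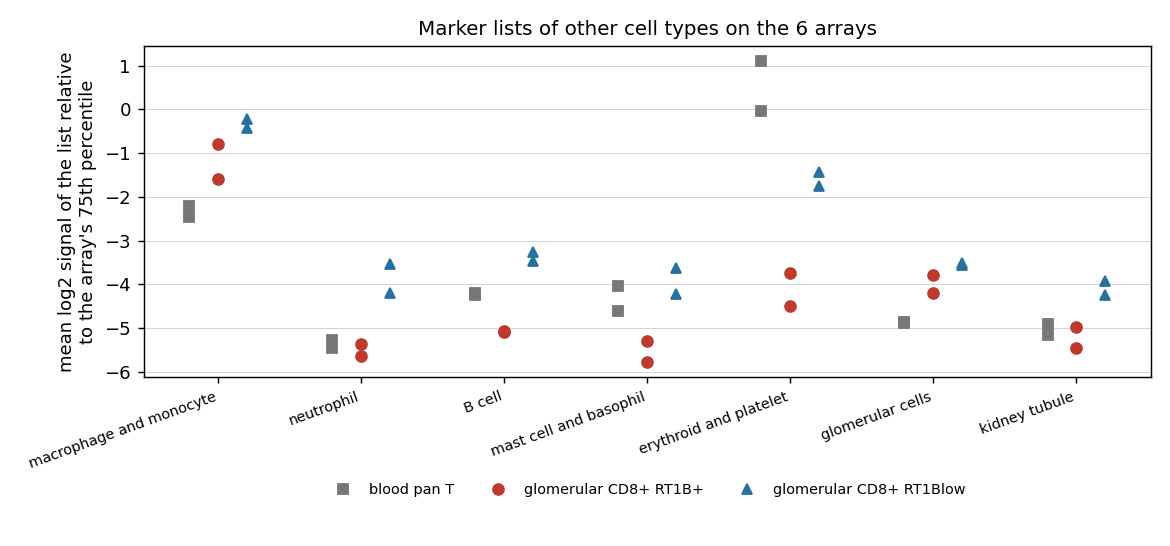
Mean level of the tested members of each marker list (log2 signal minus the array's 75th percentile) on the 2 pan T arrays (grey squares), 2 RT1B+ arrays (red circles) and 2 RT1Blow arrays (blue triangles). The macrophage list runs from -2.46 and -2.22 on pan T to -0.43 and -0.21 on RT1Blow arrays, and the erythroid list from 1.11 and -0.03 on pan T down to -4.50 and -3.74 on RT1B+ arrays.

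Taken gate by gate against the same pan T arrays, RT1B+ cells gave 5043 calls (27.3%), 2983 higher (16.1%) and 2060 lower (11.1%). RT1Blow cells gave 5268 (28.5%), 3398 higher (18.4%) and 1870 lower (10.1%). The shares of calls that went upward were 59.2% and 64.5%, against 46.1% and 54.2% with the 75th percentile over spots detected on all arrays and 73.0% and 71.8% with the series matrix values. NK receptor genes were higher in 25 of 29 in RT1B+ and in 26 of 29 in RT1Blow cells, cell cycle genes in 39 and 36 of 42, and NF-kB genes in 12 and 12 of 12. Macrophage genes were higher in 4 of 22 in RT1B+ and in 12 of 22 in RT1Blow cells. The comparisons share their pan T arrays.

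The gates were also set against each other, where 118 of 18481 genes were called (0.638%), 30 higher in RT1B+ (0.162%) and 88 lower (0.476%). Of these calls 25.4% went upward, against 41.2% with normexp background correction, 42.4% with quantile normalization, 49.3% with array median scaling, 35.7% with the series matrix values, 16.5% with the percentile over spots detected on all arrays, 5.88% with no filter on dim probes and 0% of 6 calls with the 8 arrays of slide 2. The count rests on the arrays fitted: it was 6 with the 8 arrays of slide 2 and 0 with the 4 glomerular arrays alone, where limma gave 2754 genes at an unadjusted p under 0.05, and it ran from 9 without RT1B+ replicate 2 to 676 without RT1Blow replicate 2. No NK receptor (0 of 29), granule (0 of 17), chemokine (0 of 24) or cell cycle gene (0 of 42) was called. With 0.638% of all genes called, a list of this length may well hold no call, so the gates are not shown to be alike. Cavin3, among the largest rises against pan T, read 4.28 and 3.96 on RT1B+ and 1.47 and 2.51 on RT1Blow arrays (log2 2.13). Genes lower in RT1B+ cells held 6 of 17 B cell genes and 3 of 13 erythroid genes: Cd79b read -6.11 and -6.11 against -1.90 and -3.86, and Hbb 0.20 and -2.36 against 3.63 and 5.58. Cd4 was lower in RT1B+ cells too (log2 -2.92), as was Layn (log2 -3.64). B cell and red cell transcripts and the RT1-Bb reading of RT1Blow replicate 2 move with this gate, and their part was not tested.

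Against the 4 WKY blood CD8+ arrays the glomerular cells differed less than against pan T cells in the number of calls, 2713 of 18481 (14.7%), with 1767 higher (9.56%) and 946 lower (5.12%). Calls went upward in 65.1% of cases, in 50.7% with the 75th percentile over spots detected on all arrays and in 79.9% with the series matrix values. These blood arrays lay on slide 1 and the glomerular arrays on slide 2, so slide and tissue cannot be told apart. NK receptor genes were called in 3 of 29 upward and 2 of 29 downward, and cell cycle genes in 2 of 42 upward, near or under the background. T cell receptor complex genes were called in 4 of 21 upward and 1 of 21 downward (median 0.13). The mean level of that list was 0.37 and -0.08 on blood RT1B+ and -0.32 and -0.35 on blood RT1Blow arrays. It was -0.11 to 0.51 on glomerular and 2.17 and 2.23 on pan T arrays, so its low level was shared by blood CD8+ cells. Klrb1a read 3.09, 2.88, 2.88 and 3.04 in blood, a log2 difference of -0.34 that was not called (adjusted p = 0.198, limma). Ncr1 read 2.58, 2.48, 2.54 and 2.74 in blood, above all 4 glomerular arrays (log2 -1.74, adjusted p = 0.00728, limma). Prf1 and Gzmb were not called (log2 0.19 and 0.12).

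Chemokine genes were higher in glomeruli than in blood CD8+ cells in 12 of 24 members, cytokine genes in 16 of 31, TNF family genes in 8 of 11 and NF-kB genes in 9 of 12. Ccl1 read -5.60, -5.46, -4.07 and -5.25 in blood and was higher in glomeruli by 8.68 on the log2 scale. Tnfrsf9 (log2 6.31), Crtam (6.08), Tnf (3.49) and Xcl1 (3.0) were higher as well. Macrophage genes moved with them, at 9 of 22 higher, Gpnmb by 7.27, Spp1 by 7.12 and Mmp12 by 7.09. Glomerular cell genes were higher in 9 of 20 members and tubule genes in 6 of 18, and B cell genes were lower in 9 of 17 and erythroid genes in 5 of 13. The part of these cell types was not tested. Ccr7 was higher in glomeruli than in blood CD8+ cells (log2 2.80).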

How the data were processed

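Per the labels' protocols, RNA was labelled for low input and hybridised to 1-colour Agilent rat arrays. Per the file headers, Feature Extraction 11.0.1.1 made each deposited intensity value (processed signal); the series' design text names another platform, and the files were followed. The authors' deposited series matrix, on a log2 scale whose centring is not given in the sources used here, was an alternative only.

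Control spots and outlier-flagged spots were left out, spots of a probe were averaged, and log2 intensity minus each array's 75th percentile was used. The brightest probe stood for a gene. Of 30367 probes 18355 were named through RefSeq (GRCr8, names only), giving 26785 genes, 15443 with a symbol. All 16 arrays entered 1 limma fit (limma 3.58.1, R 4.3.3) of 8 group means, so that groups share 1 estimate of spread, and no array was dropped or imputed. Genes were tested where the software flagged them above background on both arrays of 1 or more groups. The number of arrays, 2 a group, limits the precision.

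Genes named were the 12 largest rises and falls measured on both sides, the 6 largest bounds each way, up to 6 called members of each list, the genes that check the labels and the 4 largest differences of the gate and blood comparisons. List members named beyond these, such as those not called, were chosen after their values were seen. The ranked rises, falls, bounds and list members came only from called genes whose arrays did not overlap between the sides. Their separation was therefore fixed by the choice. The comparison, the 28 gene lists and the tests were chosen with earlier results of these data known. The statistics were tested on simulated data. Alternatives changed background correction, scaling, filters, probe choice, variance model and arrays. Some items are not reported here.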

Additional observations from a re-analysis of the deposited data

Results flagged for a closer look

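Several genes named for the comparison with pan T cells also differed between the 2 gates by limma's test of that difference. In RT1B+ minus RT1Blow cells the log2 difference was 2.13 for Cavin3, -3.08 for the B cell adaptor gene Blnk, -2.92 for Cd4 and -2.44 for the tubule gene Umod. The globin genes differed most, by -5.61 for Hbb-b1, -5.68 for Hbb and -4.88 for Hba-a1.

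Other genes differed between glomerular and blood CD8+ cells in the test of that difference, where slide and tissue cannot be told apart. Higher in glomeruli on the log2 scale were Ccl1 (8.68), Gpnmb (7.27), Spp1 (7.12), Cavin3 (7.09), Mmp12 (7.09), Tnfrsf9 (6.31), Tp73 (4.21), Nr4a3 (3.69), Adgrg1 (3.30), Sema7a (3.08), Gzmfl1 (3.04), Xcl1 (3.0), Srxn1 (2.79), Atf3 (2.31), Cd83 (2.29), Gadd45b (1.69) and Nr4a2 (1.29). Lower were Tmem273 (-3.57), Hbe2 (-3.17), Hbb-bs (-2.88), Alas2 (-2.68) and Art2b (-2.51).

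Klrb1a, Ncr1 and Ccl1 were also read on arrays that enter no comparison here. In blood CD8+ cells of LEW rats the mean Klrb1a level was 4.11 in RT1B+ and 4.12 in RT1Blow cells, and the mean Ncr1 level 1.96 and 2.25. Ccl1 had a mean of -6.04 in LEW RT1Blow cells, well above background on both arrays though near the pan T readings, and read -6.48 and -7.34 in LEW RT1B+ cells, not above background. On the 2 arrays labelled as glomerular macrophages Ccl1 read 2.28 and 1.80 (mean 2.04), below all 4 glomerular CD8+ arrays. Klrb1a read -0.18 and -1.06 there and Ncr1 -3.38 and -3.70, near or below the pan T readings. The deposited files of these 2 arrays are named as pan T cells; the label was followed, and the macrophage gene Cd68 read 4.42 and 3.38 on them. These differences were not tested.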

How the results depend on the processing

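The count of genes called against pan T stayed within 1.5 times of 5230 under all alternatives run (3625 to 7493), and leaving out 1 array gave 4574 to 5382. Leave-one-out counts were 4104 to 4997 for RT1B+ against pan T, 4374 to 5060 for RT1Blow against pan T and 2153 to 3088 against blood CD8+. The lone array left in a group is then assumed to vary like the other groups. Against blood CD8+, 2713 became 1694 with normexp, 1766 with the stricter filter and 5678 with no fold minimum. The 118 genes called between gates became 206 with the percentile over spots detected on all arrays, 284 with trended and robust variance, 28 with the series matrix values, 17 with no filter on dim probes, 6 with the 8 arrays of slide 2, and 0 with the compared arrays alone (2754 genes at an unadjusted p under 0.05, limma). Leaving out 1 glomerular array gave 9 to 676. The cause was not tested. The 172 called genes counted here are the ranked rises, falls, bounds and list members and the genes that check the labels. Of these, 145 were called under every one of the 20 settings that gave a value. The stricter filter kept 103, since it tests fewer genes. List members named beyond these are not counted here, and some of them lost their call under single settings, as given above. The Cd8a difference turned to -0.18 under quantile normalization and ran from -0.11 (without pan T replicate 1) to 0.60 with 1 array left out. The RT1-Bb difference turned to -0.13 under quantile normalization, -0.07 with the percentile over detected spots, and -0.07 with the series matrix values, and ran from -0.45 (without pan T replicate 2) through -0.26 (without RT1Blow replicate 2) to 0.73 with 1 array left out; the cause was not tested.

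No paired analysis was possible because the labels give the arrays no replicate numbers. Normexp was run on median signals, and probes near background limit what can be read of dim genes.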

Other observations

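Interferon response genes were mixed. Of 31 tested members 9 were higher and 2 lower on the glomerular arrays, where 17.5% and 10.8% of all genes were. Oasl, an antiviral gene induced by interferon, read -1.41, -0.55, -0.93 and -0.49 and was at least 28.6-fold higher than on the pan T arrays, where it was not well above background. The guanylate-binding protein gene Gbp5, a target of interferon gamma, rose 4.62-fold, and Irf1, the transcription factor upstream of many such genes, rose 3.67-fold. Tap1, a chain of the transporter that supplies peptides for MHC class I, rose 3.32-fold. Rsad2 (viperin) went the other way at -1.81, -3.17, -1.02 and -1.25 against 0.33 and 2.82, with the pan T arrays far apart, and it was not called without pan T replicate 2 (log2 -2.15 in place of -3.39, adjusted p = 0.189, limma). Mx2 and Isg20 were not called.

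Heat shock chaperone genes rose in 8 of 13 tested members and fell in none (0), with a median of 1.48. Hspb1, a small heat shock protein, read -1.21, 0.00, -1.02 and 0.87 against -4.29 and -4.62, a 17.3-fold rise with 1 of the 2 pan T arrays well above background. The cytosolic chaperone genes Hsp90aa1 and Hspa8 rose 3.09-fold and 2.78-fold, and the endoplasmic reticulum chaperone gene Hspa5 rose 3.02-fold. Bag3 and Chordc1, also on that list, overlapped between the sides.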
